A study of Mus musculus with 8 samples.

Results

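The expression of 10 chromatin-modifying enzymes that have been linked to hyperglycaemic memory was followed through blood monocytes (MCs) of control and diabetic mice. They were chosen by symbol, with no threshold on a measured value, but with earlier results of these data known. All 10 symbols (Kmt2a, Setd7, Kdm6b, Ezh2, Setdb2, Suv39h1, Dnmt1, Dnmt3a, Tet2 and Sirt1) were found, each in 1 row, among the 16486 genes measured.

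Hyperglycaemic memory is the name given to altered gene activity that outlasts a period of high glucose, and marks on histones and DNA are a proposed carrier of it. Methylation of histone H3 at lysine 4 marks active or poised promoters, methylation at lysine 27 and at lysine 9 goes with silencing, and DNA methylation at CpG dinucleotides helps to keep genes off. Writers add these marks and erasers remove them, and in myeloid cells several of the enzymes are themselves under the control of inflammatory and interferon signals.

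Bulk RNA-Seq libraries were made from 2 sorted blood fractions. Cells that carried CD11b but not Ly6G were split by their surface Ly6C into Ly6C-high and Ly6C-low MCs. Control (CT) mice were wild type C57/BL6. T1DM mice were C57/BL6 given streptozotocin (STZ), which destroys pancreatic beta cells, at 50 mg/kg per day on 5 days in a row, starting when they were 8 weeks old. The T2DM group was made up of db/db animals, whose homozygous mutation of the leptin receptor is present in every cell, also in MCs and their precursors. All mice were male by a figure legend of the study. By its methods they were kept on normal chow and were 20 to 22 weeks old at blood collection. RNA of 5 mice was pooled for each group. Each subset of CT mice had 2 libraries, and each subset of the T1DM and of the T2DM mice had 1.

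Several properties of the whole table bear on every value given here. Values are log2 expression values as deposited, whose antilogs sum to between 838696 and 1090019 per library, and no counts were available, so the depth behind a value and its counting error are unknown. The CT mice were sequenced on a NextSeq 500 and the diabetic mice on a HiSeq 4000, so the sequencer and diabetes cannot be told apart. Averaged over both subsets, diabetic minus CT had an SD over the 16486 genes of 0.272, against 0.743 for T2DM minus T1DM. The first takes T1DM and T2DM together and averages more libraries on each side, so these SDs are not of like measures. Diabetic minus CT in Ly6C-high MCs ran opposite to the same difference in Ly6C-low MCs (Pearson r = -0.39 across 16486 genes, which are not independent replicates and which share the processing). A shift of one gene by a constant between CT and diabetic libraries would leave its T2DM minus T1DM difference and its comparison of subset differences as they are, but not its diabetic against CT difference within a subset. Libraries of one subset in CT mice differed by a median of 0.131 for Ly6C-high and 0.139 for Ly6C-low MCs, over genes with a mean between 5 and 9, where most of the enzymes lie.

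The sorted cells were checked against marker lists. The 8 general monocyte markers were present in all libraries, with the lowest value of the list at 3.20 (Fcgr1). Their summed level (log2) was 15.17 to 15.75 in Ly6C-high and 12.98 to 13.21 in Ly6C-low MCs. Lyz2 made up most of this sum, and the median log2FC of the 8 markers between the CT subsets was 1.05. Markers of nonclassical MCs, as Ly6C-low MCs are also called, hardly separated the CT subsets by their summed level. They summed to 11.71 and 11.71 in CT Ly6C-low against 11.55 and 11.58 in CT Ly6C-high MCs. Of these 9 genes, 6 had a negative and 3 a positive log2FC between the CT subsets, with a median of -0.43. By limma 5 were lower and 2 higher in CT Ly6C-high MCs at an adjusted p under 0.05 (20.5% of all genes). Over 8 libraries 4 were called lower and 0 higher, beside 12.1% of all genes called in either direction. All 16 B cell markers were called lower in Ly6C-high MCs over the 8 libraries. Their summed level (log2) was 8.63 to 9.65 in the Ly6C-high libraries and 12.71 or more in the Ly6C-low ones. The lowest value of the list was that of Blk, at -0.26 in a Ly6C-high library. Markers of NK cells were also lower in Ly6C-high MCs (10 of 10 called). In bulk samples of this kind, fewer cells of a type and less RNA per cell cannot be told apart.

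Promoter sequence was read for 9 of the 10 enzymes, in 14 windows of 300 bases (250 before to 50 after an annotated start, RefSeq on GRCm38.p6). Kmt2a and Setdb2 are printed because the results turn on them. The 250 bases before the Kmt2a start hold 29 CpG dinucleotides and those before the Setdb2 start hold 24, set in capitals below, and each sequence reads 5′ to 3′ on the strand of its gene.
Kmt2a, GRCm38.p6 chr9:44881290-44881539, minus strand: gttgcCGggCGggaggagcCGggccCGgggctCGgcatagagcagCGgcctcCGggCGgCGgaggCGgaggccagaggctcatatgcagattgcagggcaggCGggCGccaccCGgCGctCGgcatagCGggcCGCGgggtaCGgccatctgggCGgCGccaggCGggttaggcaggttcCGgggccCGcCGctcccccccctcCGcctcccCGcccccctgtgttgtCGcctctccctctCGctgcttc
Setdb2, GRCm38.p6 chr14:59440881-59441130, minus strand: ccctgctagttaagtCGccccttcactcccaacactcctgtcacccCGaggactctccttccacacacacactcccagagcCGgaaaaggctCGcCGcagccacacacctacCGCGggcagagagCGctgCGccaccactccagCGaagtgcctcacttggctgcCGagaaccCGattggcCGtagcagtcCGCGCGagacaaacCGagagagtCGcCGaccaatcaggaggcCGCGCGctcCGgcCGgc

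Over the whole 300 bases, the Kmt2a window held 36 CpG and the Setdb2 window 29, where the median of 32851 mouse windows was 7. As many CpG as in Kmt2a were found in 6.23% of windows and as many as in Setdb2 in 12.9%. The Tet2 window held 57, a number reached by 0.152% of windows, whereas the windows of Suv39h1 held 15 and 37. Each window was also searched on both strands for an E2F-type motif (TTTCCCGC, TTTGGCGC, TTTCGCGC or TTTGCCGC), because Ezh2, Dnmt1 and Suv39h1 are known as genes of dividing cells. It was present in 2.26% of all windows. Of the enzymes, 3 had it in a window, while other windows of Dnmt1 and Suv39h1 lacked it. Each match is shown here within 30 bases, in capitals.
Ezh2, GRCm38.p6 chr6:47595009-47595038, minus strand: gggttgctgcgTTTGGCGCtcggtccggtc
Dnmt1, GRCm38.p6 chr9:20952824-20952853, minus strand: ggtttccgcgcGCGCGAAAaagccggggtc
Dnmt1, GRCm38.p6 chr9:20952574-20952603, minus strand: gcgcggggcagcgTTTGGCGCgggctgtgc
Suv39h1, GRCm38.p6 chrX:8074407-8074436, minus strand: ggaaggccggcGCGGCAAAcgtgggggccg

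The upper Dnmt1 match and the Suv39h1 match lie on the opposite strand, so the motif is read there as its reverse complement. An interferon-response motif (GAAANNGAAA) was in 3.44% of windows and in none of the 14, the Setdb2 window included. A STAT motif (TTCNNNGAA) was in 8.30% of windows and, among the enzymes, in that of Setd7. These matches describe letters in a window and no factor was measured.

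The genes are spread over the genome as protein-coding loci of GRCm38 (GENCODE M21). Kmt2a lies at chr9:44803355-44881296 and Setd7 at chr3:51515319-51560879. Kdm6b lies at chr11:69398508-69413675 and Ezh2 at chr6:47530139-47595341. Setdb2 lies at chr14:59402009-59440884 and Suv39h1 at chrX:8061171-8074760. Dnmt1 lies at chr9:20907209-20959888, Dnmt3a at chr12:3806007-3914443, Tet2 at chr3:133463679-133545139 and Sirt1 at chr10:63319005-63381704. Dnmt3a is on the plus strand and the others on the minus strand. Each locus overlaps 1 or 2 other annotated genes, often antisense ones, and whether reads were assigned by strand is not given in the sources used here. Suv39h1 shares 14.39% of its 31-base words with other genes and the other 9 share up to 3.29%, so the Suv39h1 values are the least certain in this respect.

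**Figure D1:**
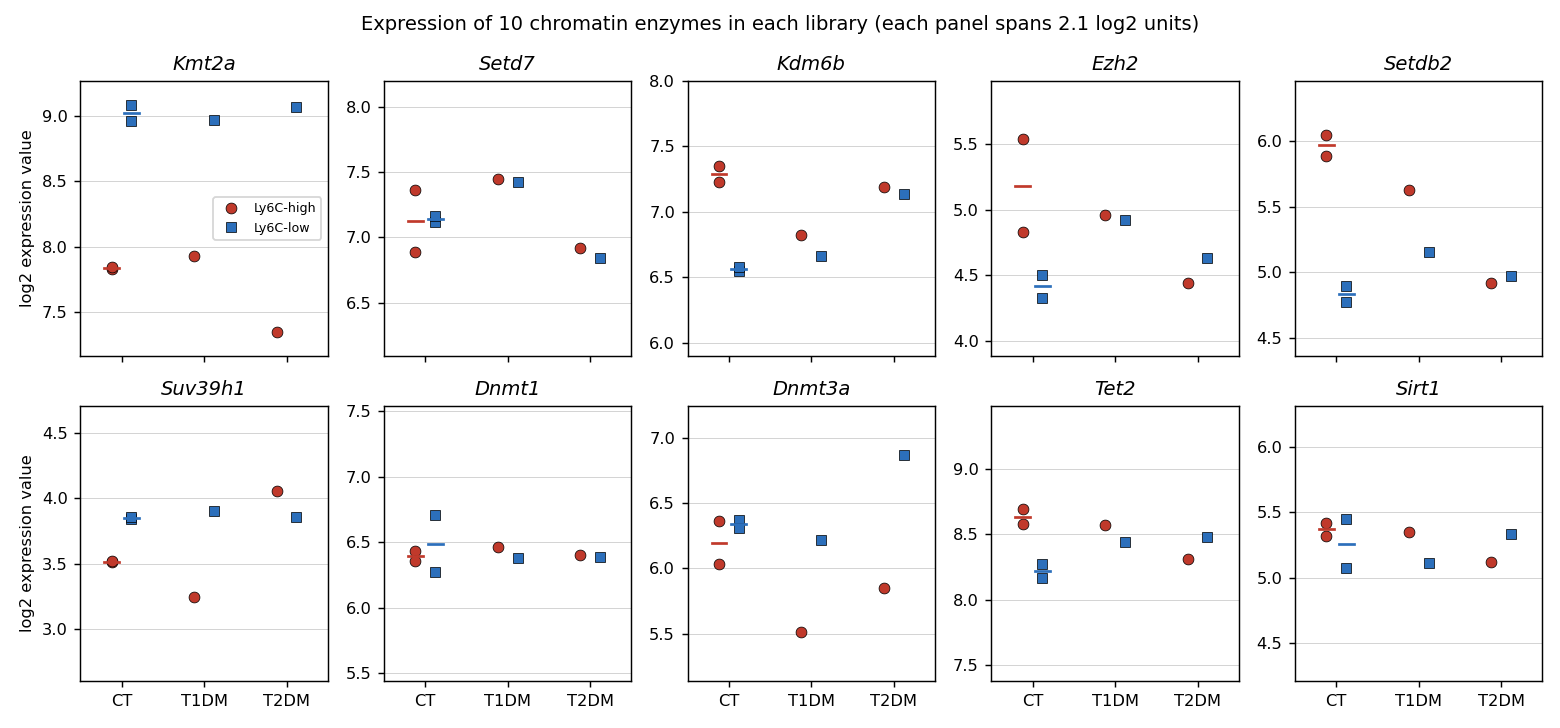
Log2 expression value of the 10 enzymes in each of the 8 libraries, by mouse group (CT, T1DM, T2DM) on the horizontal axis, with Ly6C-high MCs as red circles, Ly6C-low MCs as blue squares and a bar at the mean of the 2 CT libraries of a subset; each panel spans 2.1 log2 units. Kmt2a is the enzyme whose red and blue points stay apart in all 3 mouse groups, and Setdb2 narrows from CT to T2DM.

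Of the enzymes of H3 lysine 4, Kmt2a differed most between the subsets. Kmt2a (MLL1), a methyltransferase that keeps developmental and haematopoietic genes active, read 7.83 and 7.84 in CT Ly6C-high and 9.08 and 8.96 in CT Ly6C-low MCs. It read 7.93 in T1DM Ly6C-high against 8.97 in T1DM Ly6C-low MCs, and 7.35 in T2DM Ly6C-high against 9.07 in T2DM Ly6C-low MCs. Every Ly6C-high library was below every Ly6C-low library, and the lowest of all 8 was T2DM Ly6C-high. In CT mice Kmt2a was lower in Ly6C-high MCs by 2.27 fold (log2FC -1.18, SE 0.06, adjusted p = 0.00541, limma with Benjamini-Hochberg adjustment over all genes). It was the only 1 of the 10 enzymes called at adjusted p < 0.01 and |log2FC| > 1, where 3.52% of the genes tested were called. This call needed all 4 CT libraries and the variance trend of the limma fit (adjusted p = 0.0277 without the trend). Without CT Ly6C-high replicate 1 the adjusted p was 0.0847, without replicate 2 it was 0.0833, without CT Ly6C-low replicate 1 it was 0.0647 and without replicate 2 it was 0.0633, at log2FC of -1.24 to -1.12. In each of the 4 fits without 1 library 0 genes of the table were called by limma, with between 4651 and 5241 genes at an unadjusted p under 0.05.

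Over all 8 libraries, with mouse group in the model, Kmt2a was lower in Ly6C-high MCs by 2.43 fold (log2FC -1.28, SE 0.11, adjusted p = 5.59e-05). It was again the only enzyme called (12.1% of genes), and it was called in all 11 alternative fits, with log2FC of -1.60 to -1.13 and adjusted p of 1.04e-05 to 0.0031. The subsets did not overlap over 8 libraries for Kmt2a alone of the 10, where 32.8% of genes did not overlap. B cell markers were also lower in Ly6C-high MCs. Their median Ly6C-high minus Ly6C-low was -4.05 for CT, -3.78 for T1DM and -5.29 for T2DM mice, beside -1.18, -1.03 and -1.71 for Kmt2a. In the same order of mouse groups, NK cell markers had medians of -2.91, -2.97 and -2.55. T cell markers had medians of -0.72, -0.99 and -0.80. The part of these cells in the Kmt2a difference was not tested.

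Setd7 (SET7/9), which adds a single methyl group to H3 lysine 4 and also to non-histone proteins and has been tied to NF-kB genes after high glucose, showed no subset difference of this kind. It read 6.89 and 7.36 in CT Ly6C-high and 7.12 and 7.16 in CT Ly6C-low MCs, so the 2 Ly6C-high libraries lay on either side of the Ly6C-low ones. T1DM values were 7.45 (Ly6C-high) and 7.42 (Ly6C-low), the highest pair, and T2DM values were 6.92 (Ly6C-high) and 6.84 (Ly6C-low), with only CT Ly6C-high replicate 1 as low. The subset effect over 8 libraries was 0.02 (SE 0.11, adjusted p = 0.92).

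Of the pair acting on H3 lysine 27, both read higher in CT Ly6C-high MCs, and the gap was small or gone in the diabetic libraries. Kdm6b (JMJD3), a demethylase that macrophages induce on inflammatory stimulation, read 7.23 and 7.35 in CT Ly6C-high and 6.55 and 6.58 in CT Ly6C-low MCs. T1DM values were 6.82 (Ly6C-high) and 6.66 (Ly6C-low), and T2DM values were 7.19 (Ly6C-high) and 7.14 (Ly6C-low). The CT Ly6C-high and T2DM libraries were thus the high ones, and the CT Ly6C-low libraries the lowest. In CT mice the log2FC was 0.72 (SE 0.07, adjusted p = 0.0141), which did not pass the call limits, and over 8 libraries it was 0.41 (SE 0.13, adjusted p = 0.0444, and log2FC 0.19 with adjusted p = 0.314 after quantile normalization).

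Ezh2, the catalytic subunit of Polycomb repressive complex 2, read 4.83 and 5.54 in CT Ly6C-high and 4.33 and 4.50 in CT Ly6C-low MCs. T1DM values were 4.96 (Ly6C-high) and 4.92 (Ly6C-low), and T2DM values were 4.44 (Ly6C-high) and 4.63 (Ly6C-low). CT Ly6C-high replicate 2 stood apart above the other 7 libraries, and the CT Ly6C-high replicates lay 0.71 apart, the widest gap of any enzyme. The subset difference did not pass the test in CT mice (log2FC 0.77, SE 0.29, adjusted p = 0.155) or over 8 libraries (log2FC 0.34, SE 0.23, adjusted p = 0.282). The CT value was 0.41 without CT Ly6C-high replicate 2 and 1.12 without replicate 1.

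The H3 lysine 9 methyltransferases ran in opposite directions between the CT subsets. Setdb2, a methyltransferase that macrophages induce in response to interferon and that represses inflammatory genes, read 5.89 and 6.05 in CT Ly6C-high and 4.89 and 4.77 in CT Ly6C-low MCs. It read 5.63 in T1DM Ly6C-high, 5.15 in T1DM Ly6C-low, 4.92 in T2DM Ly6C-high and 4.97 in T2DM Ly6C-low MCs. The CT and T1DM Ly6C-high libraries were the 3 highest, and T2DM Ly6C-high lay among the Ly6C-low libraries. In CT mice the difference was 2.20 fold (log2FC 1.14, SE 0.12, adjusted p = 0.0144), just outside the adjusted p limit of 0.01, and with genes of low mean removed it was called (adjusted p = 0.00537). Over 8 libraries the log2FC was 0.68 (SE 0.20, adjusted p = 0.0321).

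Suv39h1, which trimethylates H3 lysine 9 in constitutive heterochromatin, read 3.51 and 3.52 in CT Ly6C-high and 3.84 and 3.86 in CT Ly6C-low MCs. T1DM values were 3.25 (Ly6C-high) and 3.90 (Ly6C-low), and T2DM values were 4.06 (Ly6C-high) and 3.86 (Ly6C-low). The 4 Ly6C-low libraries covered only 3.84 to 3.90, while the Ly6C-high libraries held both the lowest value (T1DM) and the highest (T2DM). Its subset difference did not pass the test in CT mice (log2FC -0.33, SE 0.15, adjusted p = 0.197) or over 8 libraries (log2FC -0.28, adjusted p = 0.304).

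Among the enzymes of DNA methylation, Dnmt1 and Tet2 spanned little over the 8 libraries, and Dnmt3a was lowest in the diabetic Ly6C-high libraries. Dnmt1, the maintenance methyltransferase that copies methylation after replication, read 6.43 and 6.36 in CT Ly6C-high and 6.27 and 6.71 in CT Ly6C-low MCs. T1DM values were 6.46 (Ly6C-high) and 6.38 (Ly6C-low), and T2DM values were 6.40 (Ly6C-high) and 6.39 (Ly6C-low). The 4 diabetic libraries lay between the 2 CT Ly6C-low replicates, which were 0.45 apart. Its log2FC was -0.10 in CT mice (SE 0.18, adjusted p = 0.731) and -0.03 over 8 libraries (SE 0.12, adjusted p = 0.887).

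Dnmt3a, a de novo methyltransferase that restrains haematopoietic stem cell self-renewal, read 6.03 and 6.36 in CT Ly6C-high and 6.37 and 6.31 in CT Ly6C-low MCs, with overlap between the subsets. It read 5.51 in T1DM Ly6C-high against 6.22 in T1DM Ly6C-low MCs, and 5.85 in T2DM Ly6C-high against 6.87 in T2DM Ly6C-low MCs. Both diabetic Ly6C-high libraries were below all the others, and T2DM Ly6C-low was the highest. In CT mice the log2FC was -0.15 (SE 0.14, adjusted p = 0.502), and over 8 libraries it was -0.51 (SE 0.17, adjusted p = 0.046), which did not pass the call limits.

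Tet2, a dioxygenase that starts the removal of DNA methylation and dampens inflammatory genes in macrophages, read 8.58 and 8.69 in CT Ly6C-high and 8.17 and 8.27 in CT Ly6C-low MCs. In T1DM it read 8.57 (Ly6C-high) and 8.44 (Ly6C-low), and T2DM values were 8.31 (Ly6C-high) and 8.48 (Ly6C-low). The CT subsets did not overlap, while the 4 diabetic libraries lay within the span of the CT ones. The log2FC was 0.42 in CT mice (SE 0.07, adjusted p = 0.0304) and 0.20 over 8 libraries (SE 0.11, adjusted p = 0.196). When the libraries were quantile normalized the CT value was 0.14 (adjusted p = 0.252) and that over 8 libraries turned to -0.08. Quantile normalization by itself shifted Ly6C-high minus Ly6C-low by a median of -0.16 over genes with a mean of at least 5.

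Sirt1, an NAD-dependent deacetylase that acts on histones and on NF-kB, read 5.32 and 5.42 in CT Ly6C-high and 5.45 and 5.07 in CT Ly6C-low MCs. In T1DM it read 5.35 (Ly6C-high) and 5.11 (Ly6C-low), and T2DM values were 5.12 (Ly6C-high) and 5.33 (Ly6C-low). The subsets overlapped, and the 2 CT Ly6C-low replicates, 0.38 apart, spanned all the other libraries. The log2FC was 0.11 in CT mice (SE 0.17, adjusted p = 0.674) and 0.06 over 8 libraries (SE 0.14, adjusted p = 0.765).

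Counted together, 4 of the 10 enzymes (Kmt2a, Setdb2, Kdm6b and Tet2) had an adjusted p under 0.05 between the CT subsets, where 20.5% of all genes did, and the CT libraries did not overlap for 6 (64.9% of genes). This count was 0 without each CT library in turn, 2 without the variance trend (Kmt2a and Setdb2) and 3 after quantile normalization, where Tet2 dropped out. Over 8 libraries 4 had an adjusted p under 0.05 (Kmt2a, Setdb2, Kdm6b and Dnmt3a), beside 32.9% of genes. Kmt2a alone had one without CT Ly6C-high replicate 1, without CT Ly6C-low replicate 1, without the T1DM libraries or without the variance trend. Kmt2a and Dnmt3a had one without CT Ly6C-high replicate 2, without CT Ly6C-low replicate 2 or after quantile normalization. Without the T2DM libraries there were 4, with Tet2 in place of Dnmt3a. The median log2FC of the 10 was 0.04 in both tests, beside -0.09 and -0.08 over all genes. Over genes with a mean of at least 5, as most of the enzymes have, the 8-library median was 0.18. Whether the enzymes lie above or below the background thus depends on the genes they are set beside.

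**Figure D2:**
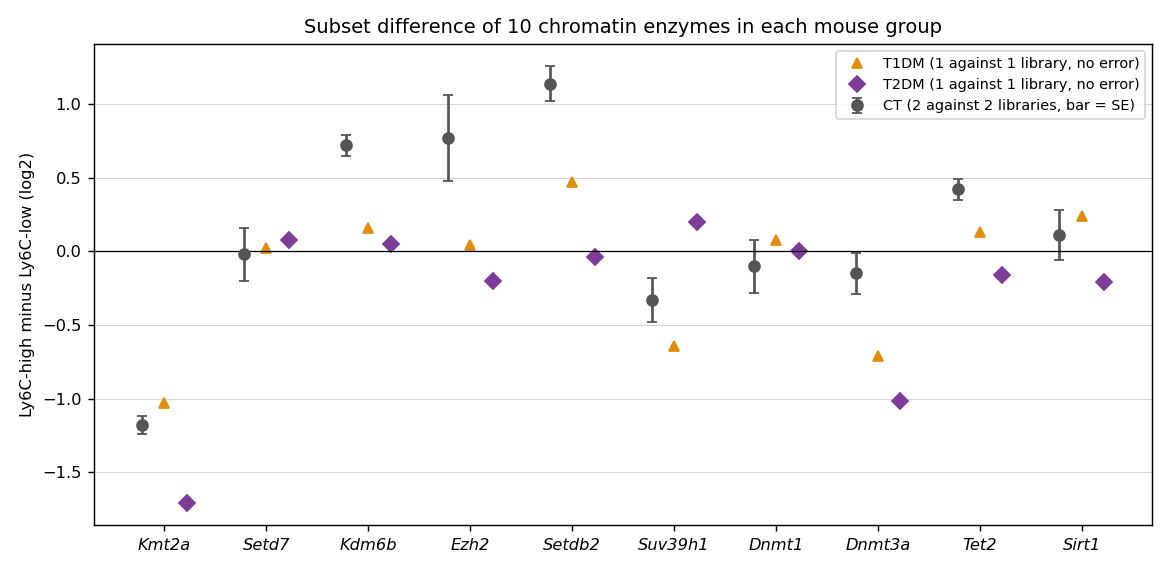
Ly6C-high minus Ly6C-low (log2 difference, vertical axis) for each of the 10 enzymes in CT mice (grey circles, 2 against 2 libraries, bar = SE of the limma fit), T1DM mice (orange triangles) and T2DM mice (purple diamonds), the diabetic ones from 1 library on each side and so without an error. Setdb2 goes from 1.14 in CT to -0.04 in T2DM, and Kmt2a lies below -1 in all 3.

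The next comparison asked whether the difference between the subsets was the same in diabetic and CT mice, a contrast that a constant shift between the sequencing runs leaves as it is. The gap of Setdb2 was smaller by 0.92 in diabetic mice (T1DM and T2DM together, SE 0.26, unadjusted p = 0.00956, limma adjusted p = 0.359). The gap of Kdm6b was smaller by 0.62 (SE 0.15, unadjusted p = 0.00533, adjusted p = 0.318), and that of Tet2 by 0.43 (SE 0.15, unadjusted p = 0.0206, adjusted p = 0.437). Dnmt3a, which had no gap in CT mice, was further below in diabetic Ly6C-high MCs by a difference of -0.72 (SE 0.23, unadjusted p = 0.0165, adjusted p = 0.407). None of the 10 passed the call limits, and neither did any other gene of the table (0.0%, with 6 genes at an adjusted p under 0.05). At an unadjusted p under 0.05 there were 4 of 10 enzymes, all with negative differences, beside 9.54% of all genes in either direction and 4.97% with a negative one. The count was 2 (Setdb2 and Kdm6b) without CT Ly6C-high replicate 2 or without the variance trend, and 3 to 5 without another CT library.

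In T2DM alone, a fit added after the data were seen that takes the lone diabetic libraries to vary like the CT replicates, the Setdb2 gap differed from CT by -1.18 (SE 0.21, adjusted p = 0.206). The Kdm6b gap differed by -0.67 (SE 0.13, adjusted p = 0.219) and the Tet2 gap by -0.58 (SE 0.11, adjusted p = 0.224). The Kmt2a gap, already negative, differed by -0.53 (SE 0.10, adjusted p = 0.222) and that of Dnmt3a by -0.87 (SE 0.25, adjusted p = 0.312). These 5 had an unadjusted p under 0.05 (13.9% of genes). In T1DM alone Setdb2 (-0.67, SE 0.21, adjusted p = 0.44) and Kdm6b (-0.56, SE 0.13, adjusted p = 0.381) did so (11.0% of genes). In both fits 0 enzymes and 0 genes were called. The 5 of T2DM became 3 without CT Ly6C-low replicate 1 and 2 without the variance trend. The 2 of T1DM became 0 without either CT Ly6C-low library or without the trend, 1 without CT Ly6C-high replicate 2 and 3 without CT Ly6C-high replicate 1. The error in these fits comes from the CT duplicates alone.

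The single diabetic pairs show the same values without a test. In T1DM mice 1 enzyme, Kmt2a, was past 2 fold between Ly6C-high and Ly6C-low MCs (27.9% of genes), at -1.03. In T2DM mice Kmt2a at -1.71 and Dnmt3a at -1.02 were past 2 fold (29.1% of genes). For 4 enzymes whose CT libraries did not overlap, the T2DM pair had the opposite sign: Setdb2, Ezh2, Suv39h1 and Tet2 (14.0% of genes), at differences of 0.20 or less in size. In T1DM mice none of the 10 did so (14.1% of genes). These counts share the CT libraries.

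Markers of other cells moved between the mouse groups as well. The 16 B cell markers had a median T2DM against CT shift of the subset difference of -0.90, and the 9 markers of nonclassical MCs one of -1.43. The summed level of nonclassical markers (log2) was 10.57 in T2DM Ly6C-high MCs against 11.55 and 11.58 in CT Ly6C-high MCs, and that of classical markers was 14.81 against 13.48 and 13.46. Whether the makeup of the sorted fraction took part in the enzyme values was not tested.

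**Figure D3:**
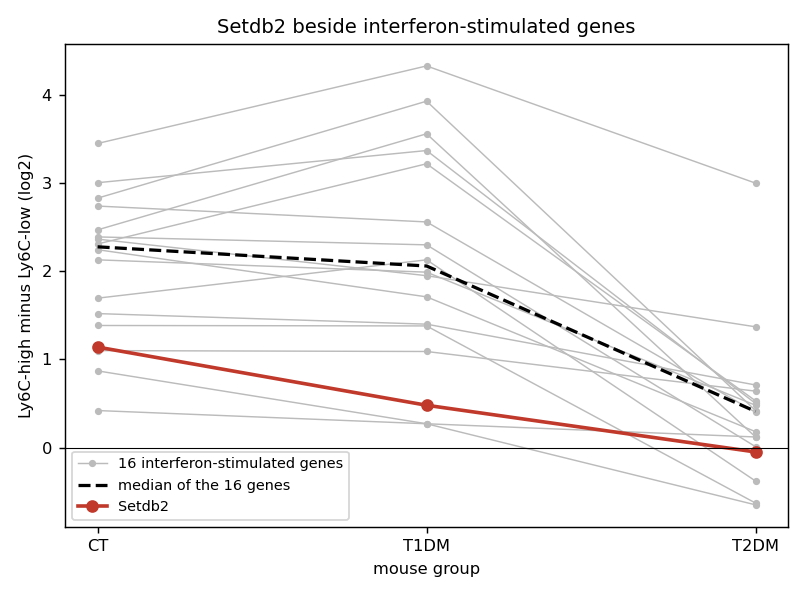
Ly6C-high minus Ly6C-low (log2 difference, vertical axis) in CT, T1DM and T2DM mice for Setdb2 (red) and 16 interferon-stimulated genes (grey, with their median dashed), the diabetic values from 1 library on each side. The median of the 16 genes is 2.28 for CT, 2.06 for T1DM and 0.41 for T2DM mice, and Setdb2 lies at 1.14, 0.47 and -0.04.

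Because Setdb2 is known as an interferon-induced gene, it was set beside 16 interferon-stimulated genes (ISGs). All 16 had a positive subset log2FC over 8 libraries and 11 were called higher in Ly6C-high MCs (12.1% of genes called in either direction). Irf7, the transcription factor that amplifies interferon production, read 7.23 and 7.30 in CT Ly6C-high against 4.74 and 5.06 in CT Ly6C-low MCs, and 5.39 against 4.02 in T2DM (log2FC 2.01, SE 0.18, adjusted p = 5.76e-05 over 8 libraries). Oasl2, an antiviral effector, read 8.03 and 7.87 against 4.78 and 5.11 in CT, and 4.32 against 3.82 in T2DM (log2FC 2.47, SE 0.40, adjusted p = 0.00177). In T1DM Ly6C-high MCs Irf7 read 6.92 and Oasl2 8.27, near the CT values, whereas Setdb2 in T1DM Ly6C-high MCs, at 5.63, lay between its CT and T2DM Ly6C-high values. For the T2DM against CT subset difference the ISGs had a median of -1.89, with 13 of 16 at an unadjusted p under 0.05 (13.9% of genes) and 0 called. The ISG list was picked with earlier results of these data known, and its values give no independent support to those of Setdb2.

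Diabetic and CT libraries were then compared within a subset, where the sequencer and diabetes cannot be told apart. Setdb2 was the 1 enzyme past 2 fold in T2DM against CT Ly6C-high MCs (log2 difference -1.05, 2.07 fold lower, where 13.8% of genes were past 2 fold), and its value of 4.92 lay outside both CT libraries. It rested on which CT library was used: without CT Ly6C-high replicate 1, 2 enzymes were past 2 fold, and without replicate 2, 0 were. In T1DM against CT Ly6C-high MCs 0 enzymes were past 2 fold (10.1% of genes), and the difference with the largest size was -0.68 for Dnmt3a. In Ly6C-low MCs 0 enzymes were past 2 fold in T1DM (8.81% of genes) or T2DM (10.8%), with Kdm6b at 0.57 and Dnmt3a at 0.52 in T2DM and Ezh2 at 0.50 in T1DM as the values of 0.5 or more.

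For 5 enzymes the diabetic mean was below CT in Ly6C-high MCs and above it in Ly6C-low MCs, as for 30.1% of genes. These log2 differences were -0.70 and 0.23 for Setdb2, -0.49 and 0.36 for Ezh2, -0.28 and 0.33 for Kdm6b, -0.52 and 0.20 for Dnmt3a, and -0.19 and 0.24 for Tet2. Across the table as a whole these differences also ran against each other. Whether values were adjusted between the sequencing runs is not given in the sources used here. An adjustment between runs could also take out a difference between diabetic and CT mice. Its part in these values and in their signs was not tested. The averages over both subsets can therefore not be read as an absence of difference. In these averages 0 enzymes were called between T1DM and CT mice (0.0% of genes, with limma adjusted p of 1.0 for all 10) and 0 between T2DM and CT mice (0.297% of genes, adjusted p of 0.706 to 0.99). In both tests 0 enzymes had an unadjusted p under 0.05, where 3.34% and 8.94% of genes did, and Setd7 had one for T1DM without CT Ly6C-high replicate 2 and for T2DM without CT Ly6C-high replicate 1.

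**Figure D4:**
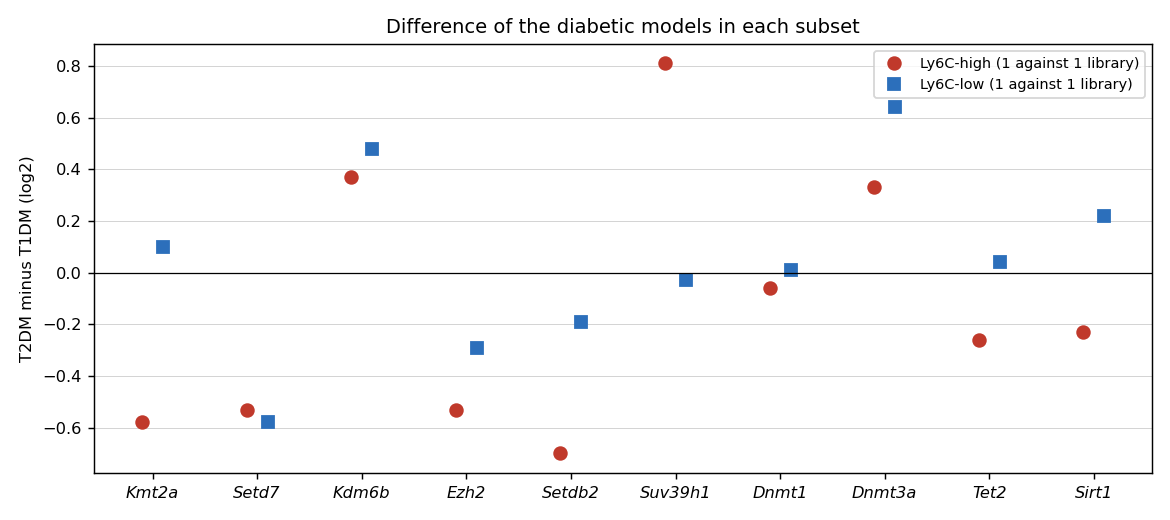
T2DM minus T1DM (log2 difference, vertical axis) for each of the 10 enzymes in Ly6C-high (red circles) and Ly6C-low MCs (blue squares), from 1 library on each side. Setd7 is the enzyme past 0.5 with the same sign in both subsets, at -0.53 and -0.58.

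Both diabetic models were run on the same kind of sequencer, which allowed T2DM to be set against T1DM. Setd7 was lower in T2DM in both subsets, at log2 differences of -0.53 (Ly6C-high) and -0.58 (Ly6C-low). Averaged over subsets, Setd7 had a log2FC of -0.55 (SE 0.16, unadjusted p = 0.0075, limma adjusted p = 0.152, and 0.107 to 0.378 over the alternatives), which did not pass. With all 8 libraries 1 enzyme, Setd7, had an unadjusted p under 0.05 (14.3% of genes). There were 3 without CT Ly6C-high replicate 2 (Setd7, Kdm6b and Dnmt3a) and 2 after quantile normalization (Setd7 and Kdm6b). Setd7 was also the 1 enzyme past 0.5 with the same sign in both subsets (14.2% of genes). The 2 libraries of CT Ly6C-high MCs were 0.47 apart for Setd7, nearly the size of this difference. None of the 10 was called (0.588% of genes), and 0 were past 2 fold in Ly6C-high MCs (19.3% of genes) or in Ly6C-low MCs (15.3%).

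Kdm6b read higher in T2DM than T1DM in both subsets (0.37 and 0.48, log2FC 0.42, SE 0.19, adjusted p = 0.362), as did Dnmt3a (0.33 and 0.64, log2FC 0.49, SE 0.24, adjusted p = 0.401). Setdb2 read lower in both (-0.70 and -0.19, adjusted p = 0.551), and Ezh2 likewise (-0.53 and -0.29, adjusted p = 0.635). Suv39h1 differed in Ly6C-high MCs alone, at 0.81 against -0.03 in Ly6C-low MCs, and Kmt2a at -0.58 against 0.10. These gaps come from 1 library on each side and were not tested apart from the averages. Markers of neutrophils read higher in T2DM than T1DM (median log2FC 1.45 over 10 genes) and those of platelets (-1.27 over 7), red cells (-1.04 over 6) and NK cells (-2.29 over 10) lower, and their part in the enzyme values was not tested.

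**Figure D5:**
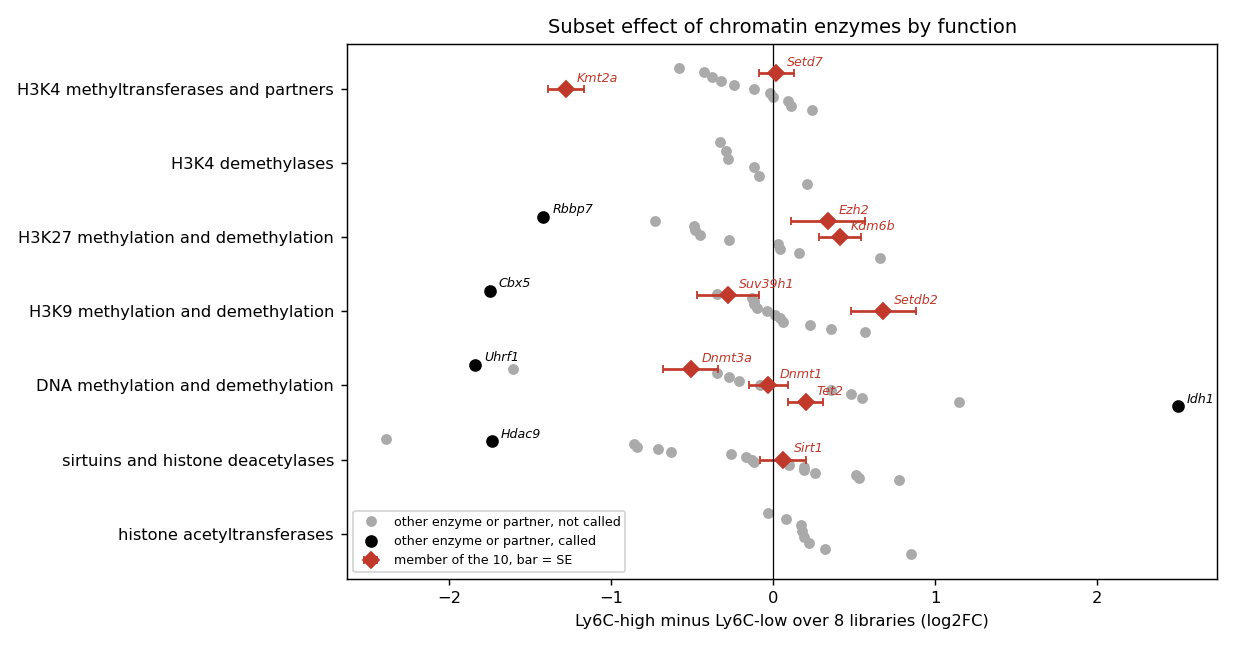
Subset effect over 8 libraries (Ly6C-high minus Ly6C-low, log2FC, horizontal axis) for the 10 enzymes (red diamonds, bar = SE) and 76 other chromatin enzymes and partners (grey, or black with a name where called at adjusted p < 0.01 and |log2FC| > 1), in rows by function. Most genes lie within 1 log2 unit of 0, and Kmt2a, Rbbp7, Cbx5, Uhrf1 and Hdac9 are called on the Ly6C-low side and Idh1 on the Ly6C-high side.

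To see how the 10 enzymes sit in their pathways, 77 other writers, erasers and partners were examined, of which 76 were measured. Over 8 libraries 1 was called higher and 4 were called lower in Ly6C-high MCs, beside 12.1% of all genes called in either direction. An adjusted p under 0.05 was found for 8 with a positive and 13 with a negative log2FC, beside 32.9% of all genes in either direction, and the median log2FC was -0.08, the same as that of all genes. The gene higher in Ly6C-high MCs was Idh1, a dehydrogenase that makes the 2-oxoglutarate used by TET enzymes and histone demethylases (log2FC 2.50, SE 0.18, adjusted p = 1.92e-05). It read 7.99 and 7.93 in CT Ly6C-high against 5.88 and 5.55 in CT Ly6C-low MCs and was also called in CT mice alone (log2FC 2.24, SE 0.14, adjusted p = 0.00677).

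The 4 lower genes came from 4 different groups. Cbx5 (HP1 alpha), which binds the H3 lysine 9 mark that Suv39h1 makes, had a log2FC of -1.75 (SE 0.18, adjusted p = 0.000145), with CT values of 5.24 and 5.01 against 6.76 and 6.82. Rbbp7, a histone chaperone of Polycomb repressive complex 2, had a log2FC of -1.42 (SE 0.12, adjusted p = 4.5e-05). Uhrf1, which brings Dnmt1 to newly replicated DNA, had a log2FC of -1.84 (SE 0.37, adjusted p = 0.00501). Uhrf1 read low, at 1.34 and 0.75 in CT Ly6C-high against 2.38 and 2.07 in CT Ly6C-low MCs (limma adjusted p = 0.0954). The size of its difference is therefore uncertain. The class IIa deacetylase Hdac9 had a log2FC of -1.74 (SE 0.20, adjusted p = 0.000258). The enzymes beside which they work were not called: Ezh2, Suv39h1 and Dnmt1 had log2FC of 0.34, -0.28 and -0.03 in the same test. Cycling-cell markers had a median of -0.84 (2 of 16 called lower) and summed levels of 7.99 to 8.12 in Ly6C-high and 8.57 to 8.80 in Ly6C-low MCs, and the part of cycling cells or B cells in these 4 was not tested.

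By group, none of the 11 other H3 lysine 4 methyltransferases and partners was called. Over 8 libraries Kmt2b (-0.58), Kmt2c (-0.32) and Ash1l (-0.38) had a negative log2FC at an adjusted p under 0.05, and 0 had a positive one. Between the CT subsets Ash1l had a negative one (-0.38, adjusted p = 0.0209, limma) and Setd1b a positive one (0.43, adjusted p = 0.0205). The 6 H3 lysine 4 demethylases had no member at an adjusted p under 0.05 in either test. For the change of the subset difference in diabetic mice 0 of the 76 genes were called and 7 had an unadjusted p under 0.05, beside 9.54% of all genes. For T2DM against T1DM, 0 were called and 12 had an unadjusted p under 0.05, beside 14.3% of all genes.

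Of 15 inflammatory genes that these enzymes have been tied to, 12 were measured, and 1 was called higher and 1 lower in Ly6C-high MCs over 8 libraries, beside 12.1% of all genes, with a median log2FC of 0.03. Ccl2, the chemokine that draws monocytes, was called higher (log2FC 3.56, SE 0.34, adjusted p = 8.96e-05), with 1.91 and 1.45 against -1.80 and -1.80 in CT mice. Ptgs2 (COX-2), which makes prostaglandins, was called lower (log2FC -2.27, SE 0.49, adjusted p = 0.00728). It read -2.11 and -2.11 in CT Ly6C-high against -0.93 and 0.12 in CT Ly6C-low MCs. Ccl2 and Ptgs2 thus read low on the log2 scale, with equal values in a pair of CT libraries. The size of these differences is therefore uncertain. Icam1 (log2FC 0.93, SE 0.13, adjusted p = 0.00067) and Txnip, a gene induced by glucose (log2FC 0.41, SE 0.08, adjusted p = 0.00622), had a positive log2FC under 1. Rela, the NF-kB subunit whose promoter Setd7 has been reported to mark after high glucose, had a log2FC of 0.28 (SE 0.15, adjusted p = 0.18). Between the CT subsets alone the log2FC of Rela was 0.52 (SE 0.08, adjusted p = 0.0324, limma), which did not pass the call limits. For the change of the subset difference in diabetic mice 0 of the 12 had an unadjusted p under 0.05, beside 9.54% of all genes, and 0 were called by limma. Between T2DM and T1DM mice, averaged over subsets, 5 of the 12 had one, beside 14.3% of all genes. Against CT mice there were 3 for T1DM (3.34% of all genes) and 2 for T2DM (8.94%). In each of these averages 0 were called, and against CT the sequencer and diabetes cannot be told apart.

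For the 4 enzymes whose values spanned more than 1 log2 unit, the genes with the most similar profile over 8 libraries were found among 5176 genes, by the root mean square (RMS) difference of centred values. For Setdb2 these were Rnf114 (RMS 0.15), Mettl7a1 (0.15) and Sp100 (0.16), of which Sp100, a nuclear body protein, read 9.34 and 9.35 in CT Ly6C-high, 9.39 in T1DM Ly6C-high and 8.48 in T2DM Ly6C-high MCs. For Kmt2a they were Cnp (0.12), Kif21b (0.13) and Foxp1 (0.15). Foxp1, a transcription factor of B cells and monocytes, read 7.99 to 8.20 in CT and T1DM Ly6C-high, 7.80 in T2DM Ly6C-high and 8.96 to 9.30 in Ly6C-low MCs. For Dnmt3a they were Smad3 (0.11), Fzd7 (0.17) and Trim26 (0.17), and for Ezh2 Tbc1d9b (0.16), Fam193b (0.16) and Acot9 (0.17). Smad3, which carries TGF-beta signals, read 5.42 in T1DM Ly6C-high and 5.83 in T2DM Ly6C-high MCs against 6.33 and 6.74 in the matching Ly6C-low libraries.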

How the data were processed

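RNA-Seq data of 8 libraries in 6 groups were analysed (2 libraries per CT group, 1 per diabetic group). The paper describes duplicates for the diabetic groups too, and further libraries were not analysed here. Per the labels and the submitters' processing notes, reads were pseudoaligned with Kallisto 0.45 and transcripts were summarized per gene with tximport 1.12.3, on R 3.6.1 and with mm10 as the build. The authors deposited log2 expression values for 16486 genes. The study's methods name gene counts and TPM (a unit per transcript length) as what tximport gave. Which of these was put on the log2 scale, any later scaling, the low-value filter, the annotation and any adjustment between sequencing runs are not given in the sources used here. The log2 values are thus not known to be per length, so levels of single genes were compared within a gene only. The summed levels of marker lists add values of different genes, and genes with high values weigh most in them.

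Deposited log2 values were tested with limma 3.58.1 (R 4.3.3, eBayes with trend, Benjamini-Hochberg over all 16486 genes), called at the study's limits of adjusted p < 0.01 and |log2FC| > 1. The CT subsets were compared with the 4 CT libraries. The other tests used all 8, with subset and mouse group in the model. Comparisons of 1 diabetic library with its counterpart are log2 differences with no test. The subset difference of T1DM or T2DM alone against CT was also fitted with limma, taking each lone library to vary like the CT duplicates. CT duplicates came from pooled RNA and nothing says they were separate pools, so p-values measure the spread between these libraries, which may be technical. The script was tested on simulated data.

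The 10 enzymes and all gene lists were chosen with earlier results of these data known. Named genes were the 10 enzymes, other chromatin genes called in any test, up to 4 genes per further list by lowest p and the 3 nearest profiles per enzyme spanning more than 1 log2 unit (genes with a mean of at least 5). Kmt2b, Kmt2c, Ash1l, Setd1b, Rela, Blk and Fcgr1 were named after their values were seen. Alternatives were a filter on mean log2 values under 1, 1 added on the linear scale, quantile normalization, no variance trend, adjusted p < 0.05 without a fold limit, a replicate block and leaving out each CT library or diabetic model. Positions are from GENCODE M21.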

Additional observations from a re-analysis of the deposited data

Results flagged for a closer look

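For 4 enzymes the T2DM pair of libraries differed between the subsets in the direction opposite to all CT libraries, and the difference between the groups was tested only in the fit added after the data were seen. Ly6C-high minus Ly6C-low of Setdb2 was -0.04 in T2DM mice against 1.14 in CT mice (adjusted p = 0.206, limma). That of Ezh2 was -0.20 against 0.77 (adjusted p = 0.495). That of Suv39h1 was 0.20 against -0.33 (adjusted p = 0.46), and that of Tet2 was -0.16 against 0.42 (adjusted p = 0.224). Of all genes, 14.0% showed such an opposite sign. Each T2DM value is 0.20 or less in size and rests on 1 library per subset, so it cannot be told from no difference.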

How the results depend on the processing

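The count of enzymes called between the CT subsets was 1. It was 2 with genes of low mean removed (1089 genes in all, against 581), 4 at an adjusted p under 0.05 without a fold limit, 0 without the variance trend (0 genes, 5810 at an unadjusted p under 0.05) and 0 to 0 without each CT library. With the replicate number as a block it was 0 (0 genes in all called by limma, 5513 at an unadjusted p under 0.05), and Kmt2a had an adjusted p of 0.0304. Same-numbered CT libraries did not deviate together (correlation of deviations 0.00892), so the numbers are not taken as pairs, and over 8 libraries the block left 1 enzyme called. With the block 3 enzymes had an adjusted p under 0.05 between the CT subsets and 2 over 8 libraries, against 4 in each without it. The count over 8 libraries became 4 at an adjusted p under 0.05 without a fold limit. Enzymes past 2 fold in T2DM against CT Ly6C-high MCs numbered 0 to 2 without each CT library.

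Signs turned for small values that no test called. Quantile normalization gave -0.0053 for Sirt1 between the CT subsets, -0.21 for Setd7, -0.08 for Tet2 and -0.05 for Sirt1 over 8 libraries, -0.05 for Kmt2a in T1DM against CT and 0.0023 for Sirt1 in T2DM against T1DM. Without the T2DM libraries Setd7 was -0.0023 over 8 libraries. Leaving out each CT library gave, between the CT subsets, -0.25 to 0.22 for Setd7, -0.32 to 0.13 for Dnmt1, -0.32 to 0.02 for Dnmt3a and -0.08 to 0.30 for Sirt1. Over 8 libraries it gave -0.07 to 0.12 for Setd7, -0.10 to 0.08 for Dnmt1 and -0.02 to 0.13 for Sirt1. For T1DM against CT it gave -0.13 to 0.11 for Setdb2, -0.02 to 0.04 for Kmt2a and -0.10 to 0.08 for Dnmt1, and for T2DM against CT -0.12 to 0.06 for Dnmt1 and -0.10 to 0.03 for Tet2. For the subset difference in diabetic against CT mice it gave -0.17 to 0.30 for Setd7, -0.09 to 0.36 for Dnmt1 and -0.28 to 0.09 for Sirt1, and with T1DM alone the values were 0.15 for Kmt2a, -0.31 for Suv39h1 and 0.13 for Sirt1. The causes were not tested. Without counts, the depth limit of these values is unknown, and 1 library per diabetic group limits every statement on T1DM or T2DM.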
